A study of Triticum aestivum with 14 samples.

Results

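The chromatin response of the wheat axillary bud to vernalization was described from 2 lists of accessible chromatin regions (ACRs), intervals in which the Tn5 transposase of ATAC-seq had inserted densely. An ACR of the unvernalized list that shared no base with any ACR of the vernalized list was counted as lost, an ACR of the vernalized list with no shared base in the unvernalized list was counted as gained, and all others were retained. The bud lists held 175599 ACRs before and 174089 after vernalization, 349688 of the 892288 ACRs in the 6 lists of the series. The series measured leaf, axillary bud and shoot apex by ATAC-seq, each without and with vernalization, beside a naked DNA input, with 2 samples in each of 7 groups. For each tissue and condition 1 list was available, so differences between the bud lists had no replicate check and were not tested.

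All plants were the bread wheat cultivar AK58, a winter hexaploid with the A, B and D sub-genomes. Unvernalized buds came from plants sampled 2 weeks after germination at 22 °C for 16 h of light and 19 °C for 8 h of dark. Vernalized plants had spent 1 month in a cold chamber at 4 °C with the same 16 h and 8 h of light and dark, and were sampled 1 day after their return to the greenhouse. The vernalized plants were therefore also older, so that cold and age cannot be told apart. Buds were measured in bulk, and a region opened in fewer cells and a region opened less in every cell cannot be told apart. The bud label was not checked against marker genes, as no gene annotation of this genome build was used.

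Vernalization is the long cold exposure that winter cereals need before they can flower, and in wheat it acts largely through the floral promoter VRN1, whose chromatin is remodelled in the cold. Axillary buds are the dormant or slowly growing meristems in the axils of leaves, from which wheat forms its tillers, and each tiller can later bear a spike. Accessible chromatin marks promoters, enhancers and other sites from which nucleosomes have been displaced. The gene-rich ends of wheat chromosomes recombine often, whereas the long interior around the centromere is rich in transposable elements. The values below are intervals on the IWGSC RefSeq v1.0 assembly, with positions counted from 1, and the outer part of a chromosome is the outer 10% of its length at each end.

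Most bud ACRs were found in both lists, and the share that disappeared was larger than the share that appeared. Of the unvernalized ACRs 41499 were lost, which is 23.6% (95% Wilson interval 23.4% to 23.8%), and 134100 were retained. Of the vernalized ACRs 31170 were gained, which is 17.9% (17.7% to 18.1%), and 142919 were retained. These intervals take in counting error alone, and ACRs that lie next to each other are not independent counts. The number of ACRs differed by -0.860% after vernalization, a small net value beside 72669 regions found in 1 list alone. When overlapping ACRs of both lists were merged, 202060 regions resulted, of which 129391 were retained, 41499 lost and 31170 gained.

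Lost and gained ACRs were narrow. Their median widths were 350 bp and 250 bp, against 850 bp for retained ACRs in the unvernalized list and 650 bp in the vernalized list. Under 300 bp lay 52.7% of the gained and 44.7% of the lost ACRs, compared with 12.1% of the retained ACRs before vernalization and 17.5% after. The share lost depended strongly on width. In the unvernalized list 53.4% of the ACRs under 300 bp were lost, 34.8% of those of 300 to below 500 bp, 18.0% of those of 500 to below 1000 bp and 5.67% of those of 1000 to below 1500 bp. Only 47 of the 10965 ACRs of at least 2500 bp were lost, 0.429% (0.323% to 0.569%). Gain followed the same order at a lower level, from 39.6% of the vernalized ACRs under 300 bp down to 0.281% of those of at least 2500 bp, which is 22 of 7828. In every width class the share lost exceeded the share gained, and the intervals overlapped only in the widest class.

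Covered length differed far more than number. The unvernalized ACRs covered 169.2 Mb and the vernalized ACRs 143.3 Mb, a difference of -15.3%. Of these lengths 117.4 Mb was common to both lists. Lost ACRs accounted for 17.9 Mb and gained ACRs for 11.9 Mb. Retained ACRs covered 33.9 Mb in the unvernalized list alone and 13.9 Mb in the vernalized list alone. Retained ACRs thus carried -19.9 Mb of the net -25.9 Mb, or 76.9%, and lost and gained ACRs the other 23.1%. Most of the shorter coverage after vernalization was thus within regions found in both lists, and the smaller part was in regions missing from 1 of them.

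Compared with retained ACRs, gained ACRs lay more towards chromosome ends and lost ACRs more towards the interior. The outer part was 20% of chromosome length in all, and it held more than that share of each class. The outer part held 53.7% of the gained ACRs (53.2% to 54.3%), 27.8% of the lost (27.3% to 28.2%) and 37.4% of the retained ACRs of the unvernalized list (37.2% to 37.7%). The part of the chromosomes from 30% to 60% of their length held 8.27% of the gained ACRs and 20.5% of the lost. It held 14.7% of the retained ACRs of the unvernalized list and 15.1% of those of the vernalized list. Gained and lost ACRs thus both departed from the retained ACRs, and in opposite directions.

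The change was graded along the chromosomes. In the first 5% of chromosome length 17.4% of the ACRs were lost and 27.3% were gained, so that the vernalized list held 17.4% more ACRs there. In the last 5% the shares were 17.1% and 26.5%, with 16.5% more ACRs. Between 50% and 55% of the length 31.9% were lost and 10.1% gained, and the vernalized list held fewer ACRs, a difference of -16.6%. The share gained exceeded the share lost in the first 5% and in the last 10% of the length, and in every part between them the share lost was the larger.

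**Figure D1:**
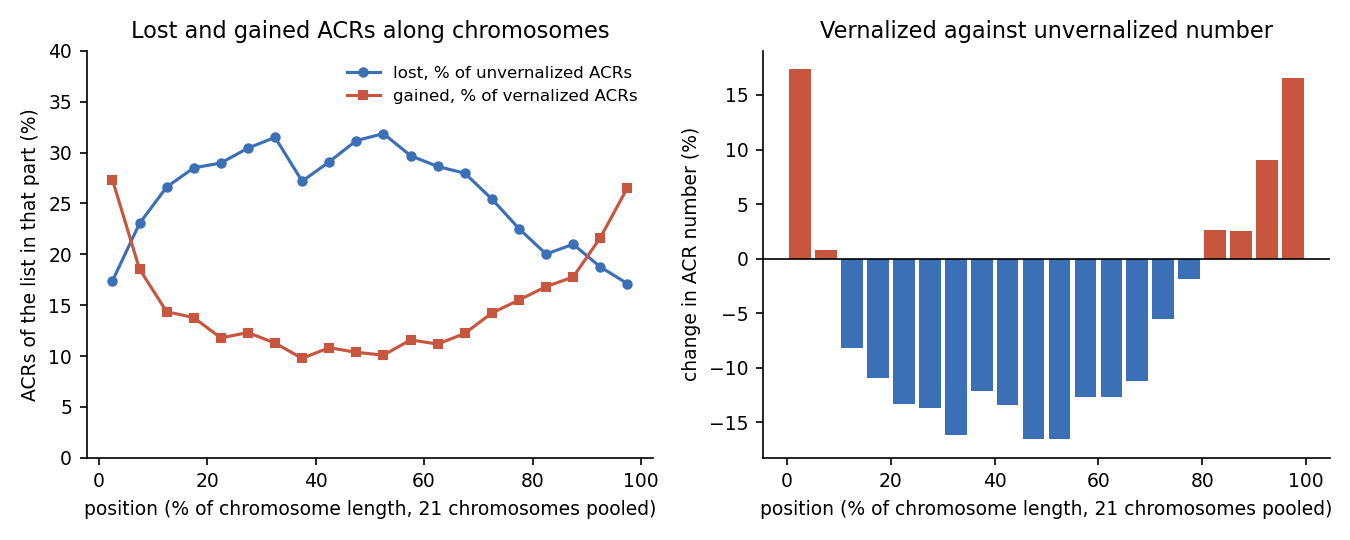
Left, ACRs lost (percent of unvernalized bud ACRs) and gained (percent of vernalized bud ACRs) in 20 equal parts of chromosome length, all 21 chromosomes pooled; right, the change in ACR number in the same parts. Loss rises to 31.9% at 50% to 55% of the length, and gain drops to 9.77% at 35% to 40%. The number is up by 17.4% in the first and 16.5% in the last part.

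In absolute distance the same order held. Within 5 Mb of a chromosome end 932 ACRs were lost and 1892 gained, a ratio of gained to lost of 2.03. At 5 to 20 Mb the ratio was 1.87, at 20 to 50 Mb 1.39, at 50 to 100 Mb 0.787, at 100 to 200 Mb 0.552 and beyond 200 Mb 0.333. Beyond 200 Mb from an end 12858 ACRs were lost and 4284 gained. The density of gained ACRs was 9.01 per Mb in the outermost class and 0.756 per Mb in the innermost, whereas lost ACRs ranged from 4.47 per Mb at 5 to 20 Mb to 2.27 per Mb in the innermost class. All ACRs were denser near the ends as well, with 26.4 unvernalized ACRs per Mb in the outermost class and 7.74 in the innermost.

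The gradient with position was present within narrow and wide ACRs alike. Among vernalized ACRs under 300 bp 51.6% were gained in the outer part and 32.0% in the inner part, and among unvernalized ACRs of that width 43.3% and 59.2% were lost. For widths of 1000 to below 1500 bp 5.21% of the outer and 1.59% of the inner ACRs were gained, and 3.97% and 6.49% were lost. The exception was the loss of ACRs of at least 2500 bp, with 21 of 4783 lost in the outer part (0.439%) and 26 of 6182 in the inner part (0.421%).

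Every chromosome had the same arrangement. The outer share of gained ACRs exceeded that of lost ACRs on 21 of 21 chromosomes, by 17.1 percentage points on 5A up to 33.9 on 7D. It was lowest for gained ACRs on 5A at 41.9% and highest on 4D at 63.1%. For lost ACRs it was lowest on 7B at 21.1% and highest on 2A at 35.9%. Retained ACRs of the unvernalized list also differed between chromosomes in their outer share, with 30.8% on 5A and 46.3% on 4D. In all 21 inner parts more ACRs were lost than gained, with ratios of gained to lost from 0.398 on 3B to 0.682 on 6B. Of the 42 chromosome ends, 36 had more gained than lost ACRs and 39 more ACRs after vernalization, and the highest ratio was 2.05 at the high-coordinate end of 3D. The lowest ratio was at the low-coordinate end of 1B, where 10 ACRs were lost and 5 gained among only 26 before and 21 after vernalization, where other chromosome ends held between 853 and 2168 before it.

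The shares lost and gained varied modestly between chromosomes. The share lost ran from 22.0% on 6B (21.1% to 22.9%) to 25.9% on 2B (25.02% to 26.76%), and the share gained from 15.6% on 5A (14.8% to 16.3%) to 20.1% on 6B (19.28% to 21.02%). Chromosome 6B was thus lowest in loss and highest in gain, and its gained to lost ratio of 0.934 was the nearest to 1. The number of ACRs was higher after vernalization on 8 chromosomes, by up to 1.93% on 6B, and lower on the other 13, with -3.83% on 5B as the furthest. Covered length was lower on all 21, with differences from -9.91% on 6B to -18.5% on 2B.

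**Figure D2:**
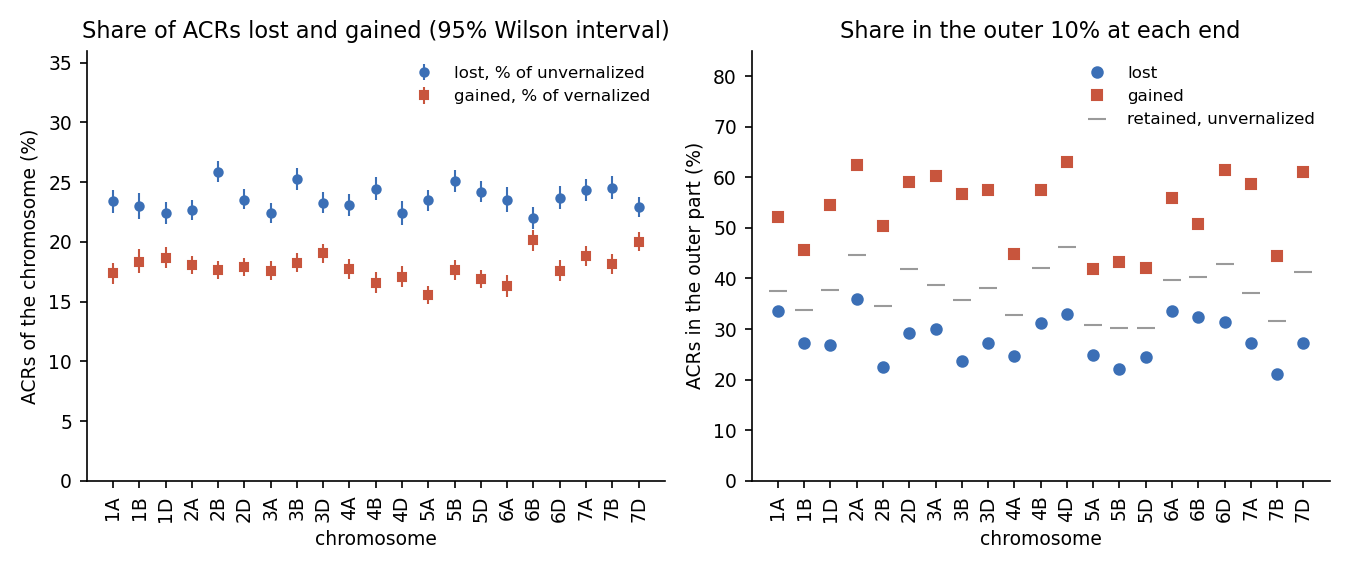
Left, the share of bud ACRs lost and gained on each of the 21 chromosomes with 95% Wilson intervals; right, the share of lost, gained and retained (unvernalized list) ACRs that lie in the outer 10% at each end. Loss stays between 22.0% and 25.9% and gain between 15.6% and 20.1%, while on every chromosome gained ACRs are the most distal and lost ACRs the least.

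The 3 sub-genomes responded at like rates. Loss was 23.2% on A, 24.4% on B and 23.2% on D, and gain was 17.4%, 18.1% and 18.2%. The number of ACRs differed by -0.378% on A, -2.25% on B and -0.0151% on D. Sub-genome D held 34.9% of the gained and 33.4% of the lost ACRs, against 34.2% of the retained. Because D chromosomes are shorter, its density of gained ACRs was higher, 2.75 per Mb against 2.07 on A and 1.94 on B, and its density of lost ACRs was 3.51 per Mb against 2.78 and 2.68. By homoeologous group, the ratio of gained to lost was lowest in group 5 at 0.667 and highest in group 7 at 0.793.

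Retained ACRs were mostly narrower after vernalization. In 113828 cases 1 ACR overlapped exactly 1 ACR of the other list. Of these pairs 51.6% (51.3% to 51.9%) were narrower by at least 100 bp, the step at which the authors' bins follow each other, 23.6% (23.3% to 23.8%) were wider by as much and 24.8% changed by less. The median width was 750 bp before and 650 bp after, the median change was -100 bp, and the length of all pairs together differed by -12.3%. A loss of 500 bp or more was seen in 16412 pairs (14.4%) and a gain of 500 bp or more in 4680 (4.11%).

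Narrowing was about equally common at the low-coordinate and the high-coordinate end of the interval. Among narrowed pairs both ends had moved in by at least 50 bp in 34.8%, the low-coordinate end only in 32.9% and the high-coordinate end only in 32.2%. The mean inward shift was 187 bp at the low-coordinate and 183 bp at the high-coordinate end. In 36.8% of all pairs the vernalized ACR lay inside the unvernalized one and in 15.3% the reverse held. In 47.1% the interval was offset to 1 side, and in 0.815% both intervals were the same. The width was the same in 20.5% of pairs, so that equal width seldom meant the same interval. The low-coordinate ends of a pair were equal or a multiple of the 100 bp bin step apart in 3.81% of pairs, and the high-coordinate ends in 3.79%. An offset was therefore not by itself a shift of the region, and the part of bin placement in it was not tested.

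The width change was read against the mean width of each pair, since a class cut on the width in 1 list favours change in 1 direction. By unvernalized width, pairs under 300 bp covered 46.1% more after vernalization and none could be counted as narrowed, and by vernalized width the length of pairs under 300 bp differed by -45.9%. By mean width, narrowed pairs outnumbered widened ones in each class from 300 bp upwards. They made up 45.8% against 27.1% at 300 to below 500 bp, 60.5% against 23.8% at 500 to below 1000 bp, and 53.9% against 30.8% at 2500 bp or more. Below 300 bp of mean width 97.3% of pairs changed by less than 100 bp, 1.07% narrowed and 1.62% widened. The smallest ACRs were 201 bp wide, so this class left little room for a change in either direction.

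Width followed the same gradient along the chromosome as gain and loss, in regions that were neither. Within 5 Mb of an end 33.9% of pairs narrowed and 37.8% widened, and their length differed by 1.11%. From 20 to 50 Mb 43.1% narrowed and 30.9% widened. Beyond 200 Mb 60.9% narrowed and 15.4% widened, with a length difference of -21.2%. The length of pairs differed by -4.55% in the outer part and by -17.0% in the inner part. Chromosome 6B stood at the edge here too, with the fewest narrowed pairs (46.8%) and the most widened (27.7%), while 5A had the most narrowed (53.6%) and the fewest widened (21.2%).

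**Figure D3:**
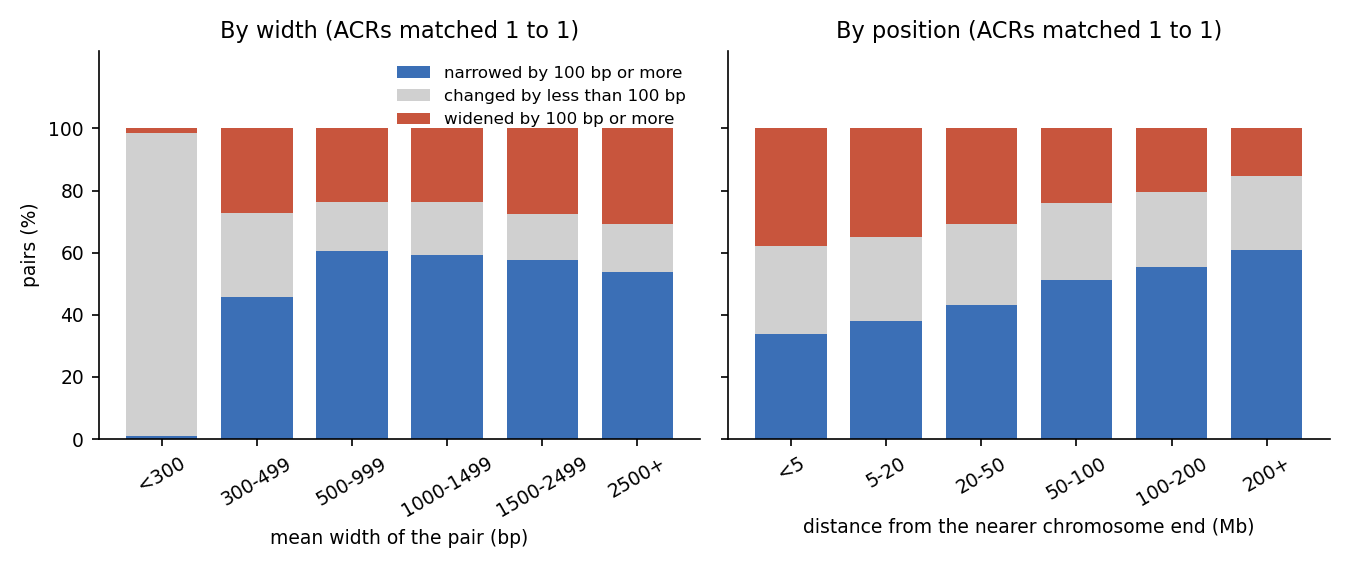
Share of 113828 pairs of bud ACRs matched 1 to 1 that were narrowed by 100 bp or more, changed by less, or widened by 100 bp or more after vernalization, by the mean width of the pair (left) and by distance from the nearer chromosome end (right). Narrowed pairs rise from 33.9% within 5 Mb of an end to 60.9% beyond 200 Mb, and widened pairs drop from 37.8% to 15.4%.

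The pairs that changed most in width were intervals of several kb. The largest narrowing was on chromosome 2A, where an ACR of 9650 bp (753768742 to 753778391) was matched by 1 of 1650 bp (753769018 to 753770667). On 2D an ACR of 7550 bp (622312618 to 622320167) had 550 bp left, and on 6B an ACR of 6150 bp (20742949 to 20749098) had 1350 bp left. The 6B interval was covered over 5266 bp in the vernalized shoot apex, and over 0 bp in the unvernalized apex.

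The 2 pairs that widened most were near each other on 1D. An ACR of 1150 bp (408207707 to 408208856) was matched by 1 of 9050 bp (408200018 to 408209067), and an ACR of 1050 bp (408078644 to 408079693) by 1 of 6150 bp (408073393 to 408079542). The first of these wide intervals was also covered in the other tissues, over 8588 bp in leaf, 6524 bp in shoot apex, 9050 bp in vernalized leaf and 8950 bp in vernalized apex. The unvernalized bud was thus the list in which the 1D region was narrow, at 1150 bp. The next was on 7A, from 450 bp (25857494 to 25857943) to 4950 bp (25856290 to 25861239), where leaf covered 1621 bp and shoot apex 4531 bp.

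Wide regions were broken into pieces more often than pieces were joined. An unvernalized ACR overlapped several vernalized ACRs in 11976 cases, 8.93% of those retained, and a vernalized ACR overlapped several unvernalized ACRs in 4334 cases, 3.03%. Of the split ACRs 10670 were in 2 pieces, 1101 in 3 and 205 in 4 or more. Split ACRs had a median width of 1950 bp, a median of 68.7% of their length was still covered, and the gaps between pieces had a median of 301 bp. Splitting increased with width, from 2.56% of retained ACRs of 500 to below 1000 bp to 40.3% of those of at least 2500 bp, while joining went from 1.52% to 20.1%.

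The most divided ACRs were an interval of 12450 bp on 2A (610056944 to 610069393) and an interval of 11650 bp on 2B (65093257 to 65104906), each overlapping 7 vernalized ACRs. The widest unvernalized bud ACR, 20350 bp on 2D (624350558 to 624370907), was in 6 pieces that still covered 88.9% of it. In the other direction, a vernalized ACR of 9550 bp on 1A (563284459 to 563294008) overlapped 8 unvernalized ACRs, which had covered 67.0% of it. Intervals of 9450 bp on 2D (618147199 to 618156648) and 9150 bp on 1B (548619437 to 548628586) each overlapped 5.

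Overlap by 1 bp was a low bar, but few retained ACRs shared less than 50 bp. Among retained ACRs 215 of the unvernalized list and 261 of the vernalized list shared less than 50 bp with the other list. Less than 50% of the interval was covered in 13.5% of the unvernalized and 4.88% of the vernalized retained ACRs. Fully covered were 17.1% of the unvernalized and 41.8% of the vernalized. From the other side, 1301 lost ACRs (3.14%) and 1514 gained ACRs (4.86%) lay within 200 bp of an ACR in the other list. A stricter rule, a reciprocal overlap of at least 50%, gave 75846 lost and 74336 gained ACRs, against 41499 and 31170 at 1 bp.

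Changed ACRs lay farther from others of their class than retained ACRs did, but followed each other along the chromosome more often than the overall shares. Another lost ACR was within 10 kb of 43.9% of the lost ACRs, and another gained ACR within 10 kb of 41.2% of the gained. For the more numerous retained ACRs the share was 73.9% in the unvernalized and 76.9% in the vernalized list. A retained ACR was within 1 kb of 30.2% of the lost and 29.97% of the gained. For retained ACRs the share with another retained ACR of their list at that distance was 31.7% in the unvernalized and 37.9% in the vernalized list. In the order of regions along the chromosome, the region after a lost one was lost in 26.6% of cases, while 20.5% of all regions were lost. The region after a gained one was gained in 27.2%, while 15.4% of all regions were gained. These shares were not tested, and the overall shares also varied with position along the chromosome, as above.

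Runs of neighbouring lost or gained regions were mostly short. Runs of 5 or more neighbouring lost regions numbered 237 and held 3.30% of the lost ACRs, and 300 such runs of gained regions held 5.92% of the gained. Among 14074 windows of 1 Mb, 38.2% had no gained and 19.1% no lost ACR. The 140 windows with the most gained ACRs held 9.70% of them, and the 140 with the most lost ACRs held 4.94% of those. Gained ACRs were fewer and lay more towards the ends, where all ACRs were denser. No such share was computed for all ACRs, so whether gain was more concentrated beyond this was not tested.

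The window with most gained ACRs was on 5B, from 691000001 to 692000000, where 7 ACRs before vernalization were followed by 50 after it. Of the 50, 43 were gained, and no ACR was lost. The longest run of gained regions in the genome was inside it, 23 regions in 65.2 kb (691414288 to 691479462) covering 23350 bp. The adjacent windows held 20 and 21 ACRs before and 22 and 24 after. In the other lists the same window held 98 ACRs in leaf, 137 in shoot apex, 120 in vernalized leaf and 10 in vernalized shoot apex. The unvernalized bud and the vernalized apex were therefore the 2 lists with few ACRs there, and the vernalized bud held fewer than leaf.

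The next windows were near chromosome ends. On 6D from 3000001 to 4000000 the number was 42 before and 80 after, with 36 gained and 3 lost, and on 2D from 2000001 to 3000000 it was 68 and 92, with 33 gained and 14 lost. In both, shoot apex had more ACRs without vernalization (97 and 94) than with it (44 and 69). Leaf did as well, with 30 and 43 without and 21 and 23 with vernalization.

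The window with most lost ACRs was on 2B, from 690000001 to 691000000, with 37 ACRs before and 5 after, 32 lost and none gained. It lay 111 Mb from the nearer end. The longest run of lost regions was close by, 17 regions over 1052 kb (688435505 to 689487297), and the windows 1 and 2 Mb below the peak had gone from 13 and 15 ACRs to 2 each. No ACR was gained in any of these 3 windows, while the window just above held 8 ACRs in each list, of which 4 were lost and 4 gained. Over the window with most lost ACRs the other tissues held 17 ACRs in leaf, 20 in shoot apex, 10 in vernalized leaf and 20 in vernalized apex. The 2 windows that followed in number of lost ACRs, on 2D from 13000001 to 14000000 and on 4D from 509000001 to 510000000, lost 24 each but held more ACRs after vernalization, 112 against 109 and 107 against 103.

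**Figure D4:**
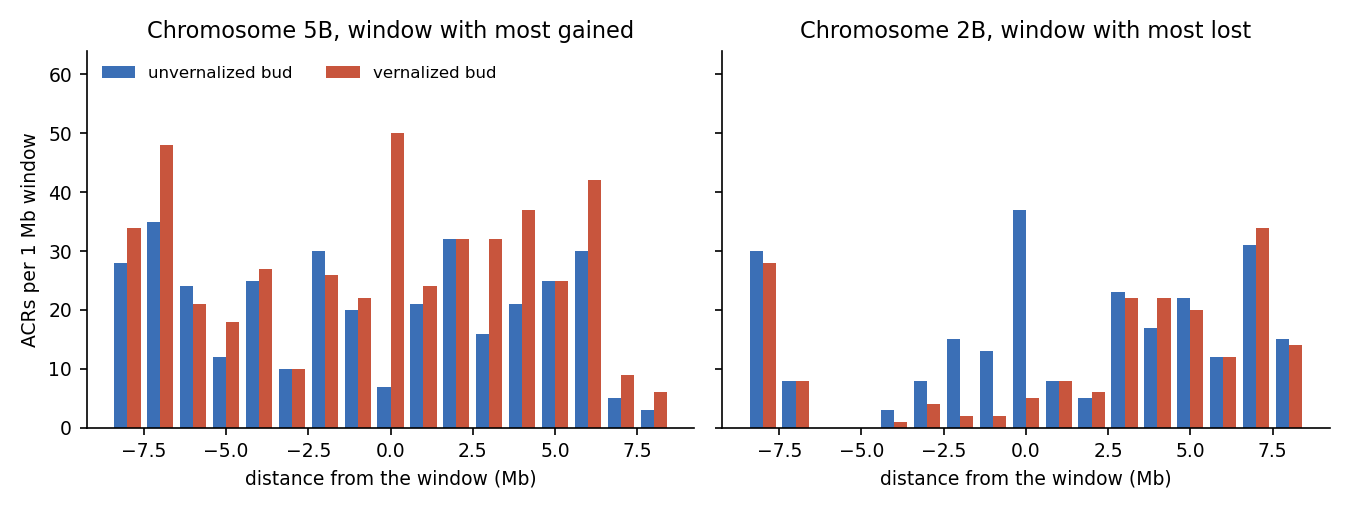
Number of bud ACRs per window of 1 Mb before and after vernalization, by distance from the window with the most gained ACRs (chromosome 5B, left) and from the window with the most lost ACRs (chromosome 2B, right). At distance 0 the number goes from 7 to 50 on 5B and from 37 to 5 on 2B, and on 2B the 2 windows below it go from 13 and 15 to 2 each.

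The widest gained ACRs were mostly called in the unvernalized shoot apex as well. The widest, 4750 bp on 5B (691414288 to 691419037), was the first region of the run described above and was covered over 3655 bp in leaf and 2564 bp in shoot apex, but over 0 bp in vernalized apex. Next were 4050 bp on 6B (116352 to 120401), 3950 bp on 2A (11911306 to 11915255), 3850 bp on 7A (727578707 to 727582556) and 3450 bp on 6B (110586 to 114035). All 5 overlapped the unvernalized apex list, over 2183 to 3950 bp.

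None of the 5 widest lost ACRs overlapped that list. They were 4650 bp on 7D (123356476 to 123361125), 4250 bp on 6B (18645029 to 18649278), 4050 bp on 7D (386727049 to 386731098), 3750 bp on 2A (99147924 to 99151673) and 3650 bp on 2B (764066008 to 764069657). The widest, on 7D, and the last, on 2B, overlapped none of the other 4 lists, so that they were called in the unvernalized bud only. The 6B interval was covered over 3589 bp in leaf.

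Over all members, retained ACRs were the ones shared with other tissues. Of the retained ACRs of the unvernalized list 10.3% were in none of the 4 lists of leaf and shoot apex, against 57.1% of the lost and 43.2% of the gained ACRs. In all 4 lists were 27.0% of the retained, 0.371% of the lost and 1.49% of the gained ACRs. The difference was present within each width class. Among ACRs under 300 bp 66.0% of the lost, 53.5% of the gained and 31.4% of the retained were in none, and among those of at least 1000 bp 32.8%, 10.4% and 1.67%.

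Gained ACRs were called in the shoot apex more often than lost ACRs, and the shares in leaf lay closer together. Of the gained ACRs 32.9% (32.4% to 33.4%) overlapped the vernalized apex list and 24.99% the unvernalized apex list, against 19.6% (19.23% to 19.99%) and 10.3% of the lost. For leaf the shares were 16.4% of the gained and 17.4% of the lost, and for vernalized leaf 14.9% and 14.3%. Within width classes the order in leaf turned, with 11.3% of the gained and 10.9% of the lost ACRs under 300 bp. These 4 lists are of unequal size, 128914 ACRs in leaf, 126351 in vernalized leaf, 132696 in shoot apex and 154639 in vernalized shoot apex.

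The contrast was greatest for wide ACRs. Of the 858 gained ACRs of at least 1000 bp 68.3% (65.1% to 71.3%) overlapped the unvernalized apex list and 61.4% (58.1% to 64.6%) the vernalized one. Of the 2015 lost ACRs of that width 17.6% (16.0% to 19.3%) and 34.0% (32.0% to 36.1%) did. In leaf both classes stood at 38.3%. Both were below retained ACRs of that width, of which 83.0% in the unvernalized and 91.3% in the vernalized bud list overlapped the unvernalized apex list. The share also varied with position: in the outer part 31.6% of the gained ACRs overlapped the unvernalized apex list and in the inner part 17.3%, against 15.5% and 8.31% of the lost.

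**Figure D5:**
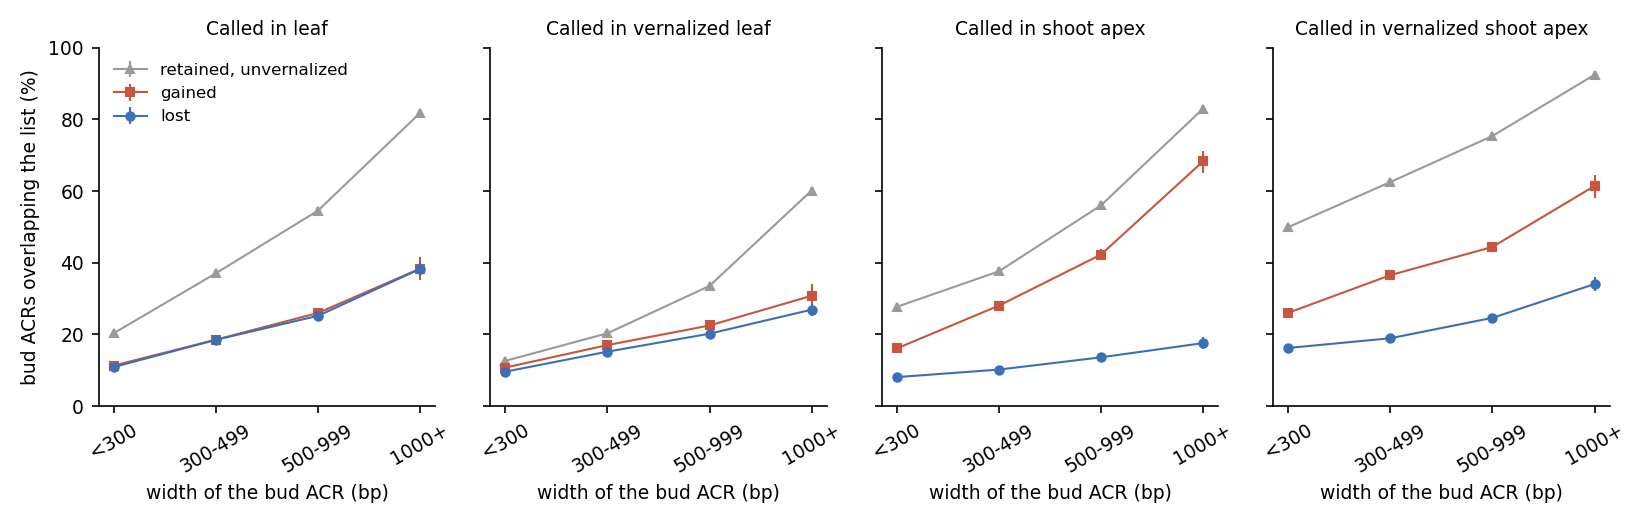
Share of lost, gained and retained (unvernalized list) bud ACRs that overlap each of the 4 lists of leaf and shoot apex, by width of the bud ACR, with 95% Wilson intervals. Gained and lost ACRs lie closer together in both leaf lists than in the apex lists, and in the unvernalized apex list 68.3% of gained against 17.6% of lost ACRs of at least 1000 bp are called.

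The values of the other tissues are given side by side, without a test. Bud and leaf had the same direction in width and splitting, and shoot apex the opposite, while the outer shares differed in direction between the bud and both other tissues. In leaf 32.9% of the gained and 35.9% of the lost ACRs lay in the outer part, and in shoot apex 35.6% and 51.3%, so that among the 3 tissues the outer share of gained ACRs was above that of lost ACRs in the bud list alone. Narrowed and widened pairs made up 43.3% and 29.9% in leaf and 28.1% and 44.3% in shoot apex. Split and joined ACRs were 6.49% and 5.10% of the retained in leaf and 5.42% and 8.84% in shoot apex. Leaf lost 64464 and gained 60850 ACRs and shoot apex lost 43159 and gained 68363, so that the bud had the fewest gained and the fewest lost ACRs of the 3 tissues. Its lists were also the longest, and the part of list length in these counts was not tested. The paper used another measure, a test of insertion counts within ACRs. By that measure it reported fewer differential ACRs in shoot apex than in axillary bud, and the most in leaf.

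The lists hold no read counts, so the depth behind each ACR is unknown and the part of depth in loss, gain and narrowing was not tested.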

How the data were processed

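ATAC-seq libraries were made from sorted nuclei of wheat leaf, axillary bud and shoot apex. Per the submitters' processing notes and the methods, reads were trimmed with fastp 0.21.0, aligned to IWGSC RefSeq v1.0 with Bowtie2 2.3.5.1, and handled with SAMtools 1.3.1, Picard 2.16.0 and bedtools. Peaks were called with MACS2 2.2.6, cut into bins of 150 bp that began every 100 bp, filtered on the density of Tn5 insertions and merged, after which those shared with input or chloroplast were removed. The deposited lists hold positions only, with no other value, and whether a list rests on 1 or both samples of its group is not given in the sources used here. Widths were therefore mostly 50 bp more than a multiple of 100 bp.

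Overlaps, widths, gaps and shares were computed in Python 3.11.15 with numpy 2.4.6, with Wilson intervals at 95%, by functions tested on simulated data. The last ACR on a chromosome in any of the 6 lists set its length. The sites named were, by rule, the 5 widest lost and gained ACRs, the 3 windows of 1 Mb richest in each, the longest run of each, the 3 pairs that narrowed and widened most, the 3 ACRs split and joined most, and the chromosomes highest and lowest in each share. The members and this rule were chosen with earlier results of these data known. Depth, input, genes and sequence were not analysed here.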

Additional observations from a re-analysis of the deposited data

Results flagged for a closer look

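The measures below moved in opposite directions in the bud and in another tissue. With 1 list per tissue and condition, these differences were not tested. The number of ACRs after vernalization differed by -0.860% in the bud and by 16.5% in the shoot apex. Covered length differed by -15.3% in the bud and by 21.6% in the shoot apex. The outer share of gained ACRs exceeded that of lost ACRs by 26.0 percentage points in the bud, against -2.95 in leaf and -15.7 in shoot apex. Narrowed pairs exceeded widened pairs by 28.0% of pairs in the bud, against -16.1% in shoot apex. Split ACRs exceeded joined ACRs by 5.90% of the retained in the bud, against -3.41% in shoot apex. In leaf the differences in number (-1.99%), length (-10.4%), width (13.5%) and splitting (1.39%) had the sign of the bud.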

How the results depend on the processing

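Lost stayed above gained in number under every overlap and width alternative. The leaf list held more of the lost than of the gained ACRs (17.4% and 16.4%), but fewer at 50% overlap (12.5% and 12.8%) and in each width class. Sub-genome A held 33.1% of the lost and 32.8% of the gained ACRs by number, but 32.9% and 33.1% by length. Of 145 alternative values 26 stayed within 1.5 times the count or within the interval of the share, and 119 moved further. A reciprocal overlap of 50% gave 75846 lost and 74336 gained ACRs, so that lost and gained numbers came closer to each other. Counting an ACR within 1 kb as shared left 28619 lost and 20604 gained. With ACRs of at least 500 bp in both lists 31078 were lost, 12684 gained and 73767 retained. In that setting an ACR narrowed to below 500 bp no longer counted as a match. With such ACRs set against all ACRs 10426 were lost and 5532 gained. The outer share of gained, lost and retained ACRs was 56.4%, 26.9% and 38.7% by length, 55.2%, 25.3% and 39.5% for ACRs of at least 500 bp, 74.2%, 50.3% and 60.5% with the outer 20% at each end, and 45.4%, 21.2% and 29.9% within 50 Mb of an end. Sub-genome D held 32.9% of the lost ACRs of at least 500 bp. Another gained ACR was within 2 kb of 22.0% and within 50 kb of 59.7% of the gained, and another lost ACR of 22.6% and 61.4% of the lost. A retained ACR was within 500 bp of 17.8% and within 5 kb of 57.9% of the gained, and of 20.0005% and 60.6% of the lost. Narrowed and widened pairs were 52.6% and 24.4% at 50 bp, 36.5% and 13.8% at 200 bp, 31.3% and 15.2% at 25% of the width, and 53.2% and 24.4% for whole bins. Joining ACRs up to 1 kb apart left 4139 split and 1984 joined. The vernalized apex list held 26.1%, 36.5%, 44.4% and 61.4% of the gained ACRs under 300 bp, of 300 to below 500 bp, of 500 to below 1000 bp and of at least 1000 bp, and 16.2%, 18.9%, 24.6% and 34.0% of the lost. At 50% overlap it held 27.1% of the gained and 14.0% of the lost.

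No paired analysis was possible because each tissue and condition has 1 list, and leaving out a replicate was not possible for the same reason. The lists give no depth, and an ACR missing from a list was not shown to be closed.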
